A study of Mus musculus with 3 samples.

Results

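Splicing regulators of the hnRNP and SR families were examined in 3 RNA sequencing libraries of WISP2 over-expressing 4T1 cells (ATCC), a mouse line derived from a mammary carcinoma and widely used as a cell line. The genes were chosen by symbol from the deposited count table: every symbol starting with Hnrnp, the numbered Srsf and Sfrs symbols, and Tra2a, Tra2b, Ptbp1, Ptbp2, Ptbp3, Rbfox2, Mbnl1, Mbnl2, Mbnl3, Celf1 and Qk. This gave 41 of the 34591 symbols. Classed by symbol, they were 19 hnRNP genes (the processed pseudogene Hnrnpa1l2-ps included), 14 SR genes (Tra2a, Tra2b and Sfrs18 included) and 8 other regulators. Ptbp3 had no row under that symbol; its older symbol Rod1 was listed and is given beside the family. Sfrs18 is the older symbol of Pnisr in RefSeq. All libraries belong to the genotype labelled WISP2 OE. Per the labels' protocols the cells were grown in RPMI with fetal calf serum, and tumour cells were transduced with a packaged vector and selected with puromycin, but the constructs described there are of Wisp1. The empty-vector controls were not analysed here, so no value below is an effect of WISP2. The table heads its columns C1, C2 and C3, which name the libraries here. No source says whether they came from separate cultures, so each spread and p-value covers these samples only and may be technical.

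Pre-mRNA splicing joins exons, and which exons are joined depends on proteins bound to the transcript. SR proteins carry RNA recognition motifs and a domain rich in arginine and serine; bound to exonic enhancers, they generally promote inclusion of the exon. The hnRNP proteins package nascent transcripts and often repress nearby splice sites, and PTB, RBFOX, MBNL, CELF and Quaking proteins switch exons between tissues and developmental stages. Many SR and hnRNP genes limit their own output by producing transcripts with a premature stop, which nonsense-mediated decay destroys.

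Summed over genes, C1 held 17630755 counts, C2 67028365 and C3 47577315. Counts are given as CPM, counts scaled so that the genes of each library sum to 1000000. CPM grows with a gene's length, so an order of genes by CPM is an order of counts; levels per length are given after the single genes. A count covers the whole gene, so isoforms were not resolved, and the level of an mRNA says nothing of the protein or its activity. All 6 listed markers of epithelial cells reached 1 CPM in every library, beside 33.8% of all symbols. Among them the keratin genes Krt8 (1077 ± 80.8 CPM, SD, n = 3) and Krt18 (986 ± 65.1 CPM) had the most counts. Epcam (90.9 ± 9.83 CPM) and Cldn7 (7.01 ± 0.321 CPM) had the fewest. Of 8 leukocyte markers 1 reached 1 CPM in every library, and their summed level was 14.6 CPM (C1), 4.68 CPM (C2) and 5.97 CPM (C3), with Cd3e at 0 counts. Of 7 fibroblast markers only Pdgfra reached 1 CPM in every library, the summed level ran between 18.3 and 20.2 CPM, and Lum and Thy1 were at 0 counts.

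The splicing regulators were expressed almost without exception. Of the 41 genes 40 reached 1 CPM in every library, against 33.8% of all symbols in the table, and 33 (80.5%) reached 100 CPM in every library, against 6.81% of all symbols and 20.1% of the genes at 1 CPM or more. Their median level was 287 CPM, not corrected for length, and that of all genes at 1 CPM or more was 35.9 CPM. Together they took 1.54% (C1), 1.56% (C2) and 1.51% (C3) of the counts. The hnRNP genes took most of this, with a summed level of 9993 ± 204 CPM (SD, n = 3), followed by the SR genes at 3490.5 ± 46.9 CPM and the other regulators at 1888 ± 29.6 CPM.

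**Figure D1:**
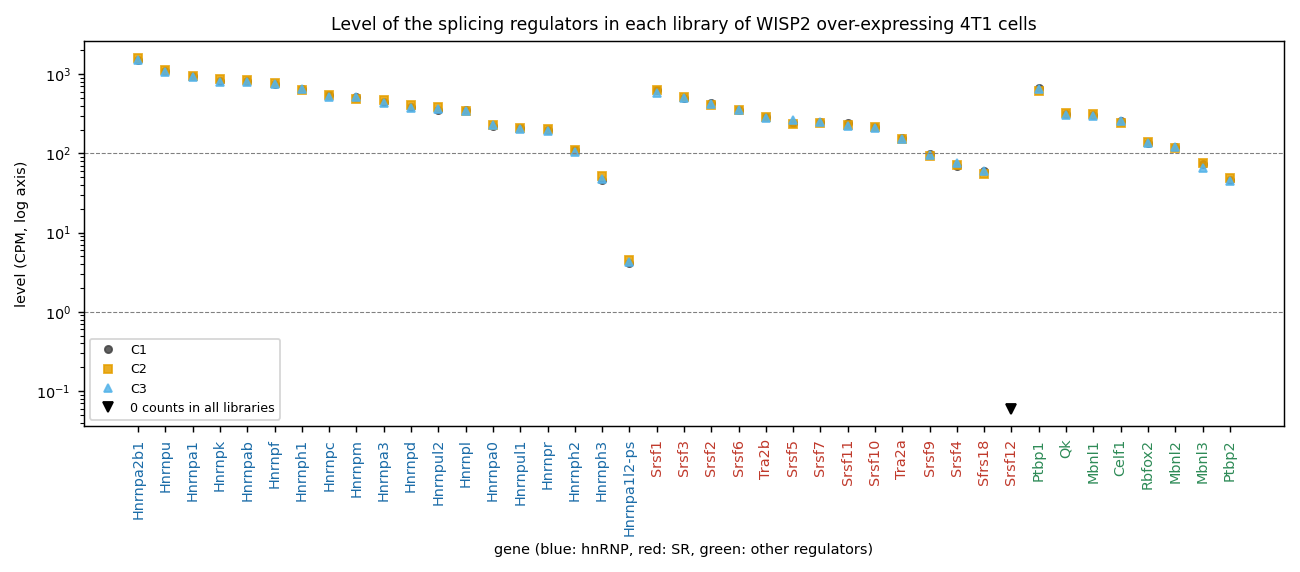
Level in CPM (log axis) of the 41 genes in each library, ordered by mean within hnRNP genes, SR genes and other regulators; dashed lines mark 1 and 100 CPM. The 3 libraries nearly coincide for each gene, Hnrnpa2b1 has the most counts at 1532 CPM on average, and Srsf12 is the only gene with 0 counts.

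Among the hnRNP genes, Hnrnpa2b1, which encodes the A2 and B1 proteins that bind exons and traffic RNA, stood at 1509 CPM (C1), 1587 (C2) and 1500.0 (C3). Its mean was 1532 ± 47.6 CPM (SD, n = 3). Hnrnpu, whose protein binds both RNA and scaffold-attached DNA, stood at 1103 CPM (C1), 1136 (C2) and 1063 (C3). Hnrnpa1, the best-studied antagonist of SR proteins at splice sites, stood at 939.9, 959 and 911 CPM in the same order of libraries. In these genes C2 was highest and C3 lowest.

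Hnrnpk, a poly(C)-binding protein, had 825 CPM (C1), 858 (C2) and 796 (C3). Hnrnpab had 809.6, 835 and 803 CPM. Hnrnpf, which binds runs of G, had 749.5, 769 and 760.4 CPM. Its relatives Hnrnph1 and Hnrnph2 also bind G runs. Hnrnph1 stood at 648 CPM (C1), 630.3 (C2) and 646 (C3), and Hnrnph2, on the X chromosome, at 109, 109.8 and 104 CPM. Hnrnpc, whose protein forms the core particle on nascent transcripts, had 543, 543 and 521 CPM. Hnrnpul2, a relative of Hnrnpu, had 356 CPM (C1), 381 (C2) and 365 (C3). For each of these genes the highest library exceeded the lowest by less than 1.2-fold.

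The remaining hnRNP genes lay in CPM between Hnrnpm (503 ± 10.3 CPM, SD, n = 3) and Hnrnph3. Hnrnpd, also known as AUF1, which marks AU-rich mRNA for decay, averaged 389.5 ± 15.2 CPM, Hnrnpl 345 ± 6.27 CPM, Hnrnpa0 226 ± 3.55 CPM, Hnrnpul1 207 ± 3.26 CPM and Hnrnpr 198 ± 5.74 CPM. Hnrnph3 had the fewest counts of the protein-coding hnRNP genes, at 46.1 CPM (C1), 52.1 (C2) and 47.5 (C3), but per length Hnrnpr was lower. The row with the fewest counts was Hnrnpa1l2-ps, a processed pseudogene, at 4.33 ± 0.216 CPM.

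The Hnrnpa1 row cannot be read alone, because the genome holds copies of this gene. In the GENCODE M21 transcripts (mouse build GRCm38), 46.4% of the 50-base windows of the longest protein-coding Hnrnpa1 transcript also occurred, without a mismatch, in transcripts of 19 other genes, 18 of them pseudogenes. Gm10052, a processed pseudogene on chromosome 9, aligned to 960 of the 1119 coding bases of Hnrnpa1 with 0 mismatches. Gm5643, on the X chromosome, aligned to the same number with 12 mismatches, and Hnrnpa1l2-ps, on chromosome 13, aligned to 958 with 36. The stretch below is coding bases 118 to 237 of Hnrnpa1, counted from the A of its start codon. It is the first ungapped window of 120 bases in which Hnrnpa1l2-ps has the median number of mismatches over such windows. Reads from it cannot be assigned between Hnrnpa1 and Gm10052 by sequence. Hnrnpa1 lies on chromosome 15. Capitals mark bases that differ from Hnrnpa1, of which there are 2 in Gm5643 and 5 in Hnrnpa1l2-ps.
Hnrnpa1: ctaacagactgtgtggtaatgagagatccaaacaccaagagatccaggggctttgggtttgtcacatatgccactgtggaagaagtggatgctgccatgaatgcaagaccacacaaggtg
Gm10052: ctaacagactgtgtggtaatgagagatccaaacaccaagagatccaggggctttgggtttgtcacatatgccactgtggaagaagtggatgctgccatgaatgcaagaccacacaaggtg
Gm5643: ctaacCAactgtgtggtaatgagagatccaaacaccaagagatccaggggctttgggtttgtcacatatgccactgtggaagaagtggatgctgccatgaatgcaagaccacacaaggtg
Hnrnpa1l2-ps: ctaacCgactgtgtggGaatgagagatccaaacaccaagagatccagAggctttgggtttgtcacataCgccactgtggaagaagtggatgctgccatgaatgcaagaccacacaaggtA

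These copies carried counts. Gm10052 stood at 667 CPM (C1), 698 (C2) and 669 (C3), so its summed counts were 72.8% of those on Hnrnpa1. Gm7729 stood at 83.2 ± 4.22 CPM (SD, n = 3) and Gm5643 at 31.2 ± 1.39 CPM. Listed copies that shared at least 10% of a gene's windows were then summed; this threshold was set after the values were seen. For Hnrnpa1 the 5 listed copies, Hnrnpa1l2-ps among them, summed to 797 CPM on average against 937 CPM on the gene, and took 46.0% ± 0.464 of the joint counts (SD, n = 3). The multi-mapping setting of the authors' counting is not given in the sources used here, and whether these counts come from Hnrnpa1 mRNA or from the copies was not tested.

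The same held more strongly for Hnrnpa3, a relative of the A2/B1 proteins. Its own row had 443 CPM (C1), 468 (C2) and 432 (C3), whereas its 12 listed copies summed to 1074 CPM (C1), 1153 (C2) and 1073 (C3). The copies thus held 71.1% ± 0.276 of the joint counts (SD, n = 3). Among them were the processed pseudogenes Gm11847 (325 ± 7.33 CPM) and Gm5641 (227 ± 9.51 CPM, annotated as transcribed) and Gm6793 (83.4 ± 1.93 CPM), which is annotated as protein-coding. With the copies added, Hnrnpa3 would stand at 1548 ± 63.3 CPM.

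Copies took smaller shares of the other genes. They held 17.3% of the joint counts for Hnrnpk (a single copy, Gm7964), 11.1% for Srsf3 (2 copies), 9.05% for Tra2b, 7.52% for Hnrnpf (4 copies), 5.05% for Srsf5, 2.69% for Hnrnph2 and 0.923% for Hnrnpc. No window was shared with a gene elsewhere for 20 of the 41 genes, among them Srsf1, Srsf2, Srsf6, Hnrnpu, Hnrnpm, Ptbp2, Rbfox2 and all of the Mbnl genes, and 11 shared 10% or more. Genes that overlap them in the genome held windows of 14 genes, including Srsf1, Srsf2 and Ptbp1; the strand setting of the counting is not given in the sources used here, so their counts may include reads of the neighbour.

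**Figure D2:**
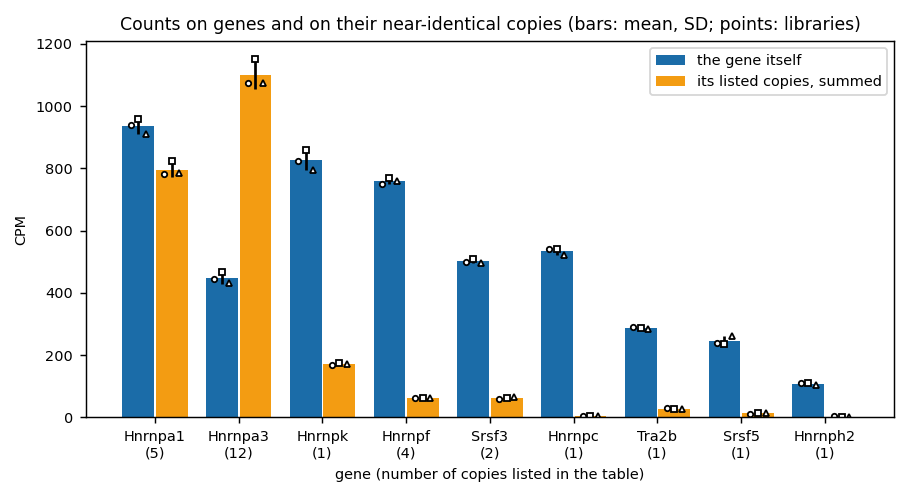
Level in CPM of the 9 genes with listed copies sharing at least 10% of their windows, beside the summed level of those copies; bars show the mean, lines the SD and points the libraries C1 (circle), C2 (square) and C3 (triangle). For Hnrnpa3 the copies exceed the gene, at 1100.0 CPM against 448 CPM on average.

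Srsf1 led the SR genes in counts. Srsf1, which encodes the founding SR protein SF2/ASF, had 627 CPM (C1), 627 (C2) and 581 (C3). Srsf3, the smallest SR protein, had 501, 509.6 and 497 CPM, and Srsf2, the nuclear speckle protein SC35, had 438, 408 and 420.2 CPM. Srsf6 followed at 356, 348 and 348 CPM. In Srsf1 the library C3 lay below the others, and in Srsf2 the library C1 lay above them. In each of these genes, Srsf3 and Srsf6 included, the libraries were within 1.2-fold of each other.

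Tra2b, a sequence-specific activator that binds GAA-rich enhancers, had 290.2 CPM (C1), 288 (C2) and 284 (C3), and its paralog Tra2a had 158, 152 and 153 CPM. Srsf7, which shuttles and takes part in mRNA export, had 249.8, 242 and 245 CPM. Srsf5 had 240.2 CPM (C1), 237 (C2) and 263 (C3), so C3 stood above the others. Srsf11 averaged 232 ± 10.6 CPM (SD, n = 3). Srsf10, whose protein acts as a splicing repressor when dephosphorylated, had 213, 216 and 208 CPM.

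Below 100 CPM, in the same order of libraries, were Srsf9 (97.0, 93.2 and 96.3 CPM), Srsf4 (69.8, 71.3 and 75.2 CPM) and Sfrs18 (60.3, 54.2 and 60.3 CPM). Srsf12, the closest relative of Srsf10, was never counted; at 3 counts, its level could reach 0.170 CPM (C1), 0.0448 (C2) and 0.0631 (C3), counting error only. Per exon base, Srsf10 was at least 563-fold higher than Srsf12 in every library, with a floor of 3 counts per library.

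The other regulators were led, in counts and per length, by Ptbp1, the polypyrimidine tract-binding protein that represses neuronal and other tissue-specific exons in cells outside the nervous system. Ptbp1 had 672 CPM (C1), 617 (C2) and 655 (C3). Its neuronal paralog Ptbp2 had 46.6, 48.8 and 44.2 CPM, and Rod1, the Ptbp3 row, had 284, 299 and 286 CPM. C2 was the lowest library for Ptbp1 and the highest for Ptbp2 and Rod1.

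Qk, the Quaking protein, a regulator of exons in muscle and glia, averaged 315 ± 8.80 CPM (SD, n = 3). The muscleblind genes, whose proteins drive adult splicing patterns, were, with C1, C2 and C3 in turn, Mbnl1 (306, 312 and 293 CPM), Mbnl2 (120.1, 116 and 119 CPM) and Mbnl3 (73.7, 75.6 and 64.8 CPM). Celf1, an antagonist of the muscleblind proteins on several exons, had 254, 240.3 and 256 CPM, and Celf2 had 115, 119.7 and 115 CPM. Rbfox2, the widely expressed member of a family that binds UGCAUG, had 136, 137 and 136 CPM.

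To compare genes, each count was divided by the number of exon bases that GENCODE M21 annotates for the gene and was scaled within its library to the same sum as CPM. On this length-scaled level, Hnrnpa1 (877 ± 25.7, SD, n = 3) and Hnrnpab (866 ± 21.1) led, and their means differed by less than their SDs over libraries. Within each library Hnrnpa1 was above Hnrnpab, at 879 against 858 (C1), 902.3 against 890.0 (C2) and 850.9 against 850.3 (C3). Hnrnpf (736 ± 11.5) and Hnrnpa2b1 (687 ± 23.9) followed, then Srsf2 (421 ± 14.3) and Ptbp1 (404 ± 16.3). The mean ± SD intervals of Srsf2 and Ptbp1 overlapped. Within each library Srsf2 was above Ptbp1, at 437 against 418 (C1), 409 against 386 (C2) and 418 against 407 (C3). Next came Hnrnpk (377 ± 15.6), Hnrnpc (366 ± 9.53), Hnrnph1 (324 ± 3.88) and Srsf1 (316 ± 14.4). The median length-scaled level was 156 over the 41 genes and 24.6 over all genes at 1 CPM or more that had a length. By class it was 245 for hnRNP genes, 131 for SR genes and 48.7 for the other regulators.

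The counts of copies were not added in this order. With them, Hnrnpa1 would stand at 1733 CPM and Hnrnpa3 at 1548 CPM, not per length, against 937 and 448 CPM on their own rows. Without them, Hnrnpa3 stood at 245 ± 10.9 per length over exon bases. The order also depended on the length used. Divided by the longest protein-coding transcript instead, Hnrnpa2b1 ranked first at 1927 ahead of Hnrnpa1 at 1061, and Srsf3 ranked 9 among the 41 genes, against 16 over exon bases. Annotated exon bases include rare and retained-intron transcripts, 6584 bases for Hnrnpa2b1 against 1728 in its longest protein-coding transcript and 7899 against 2618 for Srsf3. The counts do not say which transcripts the cells made. Hnrnpr has an annotated protein-coding transcript of 21452 bases, which lowers its length-scaled level under both lengths.

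**Figure D3:**
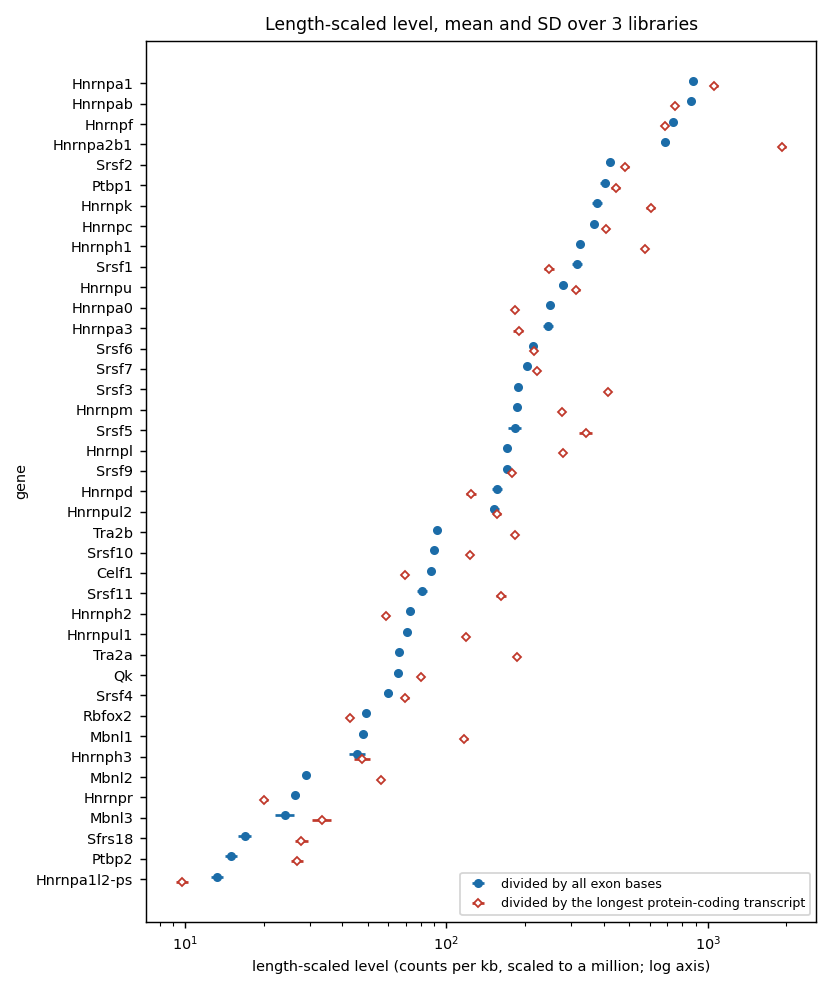
Length-scaled level (log axis) of the 40 genes with counts, as mean and SD over 3 libraries, divided by all annotated exon bases (filled) or by the longest protein-coding transcript (open). Hnrnpa2b1 lies at 687 over exon bases and 1927 over the transcript, Mbnl1 at 47.9 and 117, and Rbfox2 at 49.4 and 42.9.

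For each paralog pair a ratio per library was formed after adding 0.5 to both counts and dividing by exon bases. Ptbp1 exceeded Ptbp2 by 4.75 ± 0.12 on the log2 scale (SD, n = 3), or 27.0-fold, in 3 of 3 libraries, and exceeded Rod1 by 1.82 ± 0.10, or 3.53-fold. Hnrnph1 exceeded Hnrnph2 by 2.15 ± 0.06 and Srsf6 exceeded Srsf4 by 1.85 ± 0.07. Celf1 exceeded Celf2 by 2.72 ± 0.08, and the log2 ratio was 1.27 with the longest protein-coding transcript as the length. Hnrnpu exceeded Hnrnpul2 by 0.88 ± 0.04, Srsf1 exceeded Srsf9 by 0.89 ± 0.08, and Mbnl1 exceeded Mbnl2 by 0.72 ± 0.07 and Mbnl3 by 0.99 ± 0.07. Each of these pairs kept its direction under both lengths and without length correction. Hnrnph1 lay below Hnrnpf by 1.18 ± 0.04 on the log2 scale, with a mean of -0.24 without length correction.

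For 3 pairs the order was set by the length. Tra2b exceeded Tra2a by 0.48 ± 0.02 on the log2 scale over exon bases, but the mean was -0.03 with the longest protein-coding transcript. Hnrnpa2b1 stood at -0.35 ± 0.02 relative to Hnrnpa1 over exon bases and at 0.86 with the longest protein-coding transcript; with the copies added to Hnrnpa1 it stood at -1.24 over exon bases. Srsf3 stood at -0.12 ± 0.04 relative to Srsf7 over exon bases, at 0.91 with the longest protein-coding transcript, and at 0.05 over exon bases with the copies added. Rbfox1, the neuronal and muscle relative of Rbfox2, had 1 count summed over the libraries against 18046 for Rbfox2, a ratio of counts, not per length, of 18046 (95% counting interval 3238 to 712818, exact conditional binomial).

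**Figure D4:**
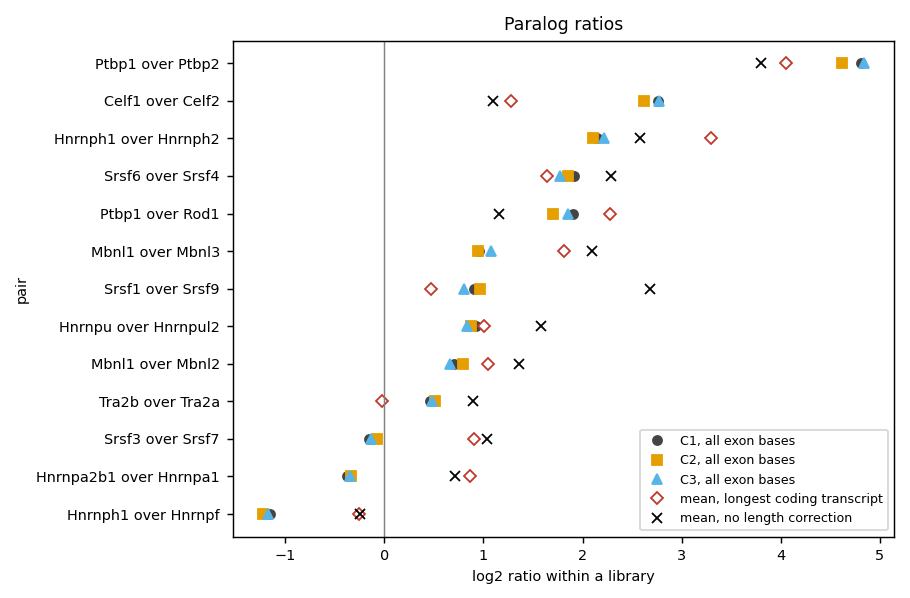
Log2 ratio of 13 paralog pairs within each library over exon bases (filled symbols), with the mean over the longest protein-coding transcripts (open diamonds) and without length correction (crosses); 0 means equal levels. The libraries lie close together in each pair, and the choice of length moves a pair further than the choice of library, as for Hnrnpa2b1 over Hnrnpa1 (-0.35 against 0.86).

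The libraries differed little in these genes. The coefficient of variation over the 3 libraries ran from 0.686% for Rbfox2 to 8.03% for Mbnl3. Its median was 2.90% over the 40 genes tested, beside 5.41% over all genes tested. It was 3.48% over the 2467 tested genes at 100 CPM or more on average, a level that 33 of the 40 reached. After Rbfox2, the steadiest genes above 100 CPM were Tra2b (1.18%), Hnrnpf (1.26%) and Srsf6 (1.26%). In each of the 40 genes the highest library exceeded the lowest by less than 1.2-fold, the largest ratio being 1.17 for Mbnl3.

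Whether a gene varied more than Poisson counting allows was tested by chi-square with Benjamini-Hochberg adjustment over 13026 genes. Of the 40 genes tested 29 (72.5%) passed at 0.05, beside 39.4% of all genes tested. The share moves with the level, and among genes at 100 CPM or more it was 72.7% for the splicing regulators (24 of 33) and 72.7% for all genes tested, a share at the background. Without C2, 7 of 40 (17.5%) passed, beside 13.6% of all genes tested; among genes at 100 CPM or more, 6 of 33 (18.2%) did, beside 33.5%. Without C3, 15 of 40 (37.5%) passed, beside 12.6%, and at 100 CPM or more 13 of 33 (39.4%), beside 31.3%. Without C1, 27 of 40 (67.5%) passed, beside 37.1%, and at 100 CPM or more 22 of 33 (66.7%), beside 67.6%. By class, 15 of 19 hnRNP genes, 8 of 13 SR genes and 6 of 8 other regulators passed. Rbfox2, Srsf6, Tra2a, Tra2b, Srsf7, Srsf9, Hnrnpl, Hnrnpul1, Hnrnpa0, Mbnl2 and Hnrnpa1l2-ps did not.

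Against the trend of genes of similar level, no splicing regulator passed the test. The edgeR quasi-likelihood dispersion of each gene was compared with its fitted trend by an F test. None of the 40 genes passed an adjusted p of 0.05, beside 0.0691% of all genes tested (9 of 13026). None had an unadjusted p under 0.05 either, beside 5.14% of all genes. A robust fit called none of them, but it called 0 of all 13026 genes tested. The 6 largest ratios to the trend were those of Mbnl3 (3.27), Srsf5 (2.27), Hnrnph3 (1.86), Sfrs18 (1.64), Hnrnpa3 (1.24) and Srsf1 (1.24). Mbnl3, low in C3, had an unadjusted p of 0.0863 and an adjusted p of 0.995 in this edgeR test. The median ratio was 0.519 over the splicing regulators and 0.748 over all genes tested. A p that misses the threshold does not show that the libraries were alike.

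The small differences that remained were not spread evenly over the libraries. With TMM scaling (edgeR's trimmed mean of M-values), 10 of the 40 genes were highest in C1, 23 in C2 and 7 in C3, beside 27.6%, 37.1% and 35.4% of all genes tested. Of them 8 were lowest in C1, 12 in C2 and 20 in C3, beside 33.2%, 31.7% and 35.1%. By class, 14 of 19 hnRNP genes were highest in C2 and 11 were lowest in C3. The median log2 deviation of hnRNP genes from each gene's mean was -0.02 in C1, 0.04 in C2 and -0.03 in C3. Of 13 SR genes 6 were highest in C1 and 7 were lowest in C2. Their median deviation was 0.02 in C1, -0.01 in C2 and -0.01 in C3. The 8 other regulators were highest in C2 in 5 cases, with medians of 0.01, 0.03 and -0.02. Over all genes tested the medians were -0.01 in C1, 0.01 in C2 and -0.00 in C3. Over genes at 100 CPM or more they were -0.00, 0.01 and -0.01, and over the 40 splicing regulators 0.00, 0.02 and -0.01, with the same sign in C2 and in C3. With total-count scaling 13 hnRNP genes were highest in C2 and 9 SR genes were highest in C1. C1 was also the shallowest library and the one with the highest summed leukocyte markers, and the part of either in these deviations was not tested.

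**Figure D5:**
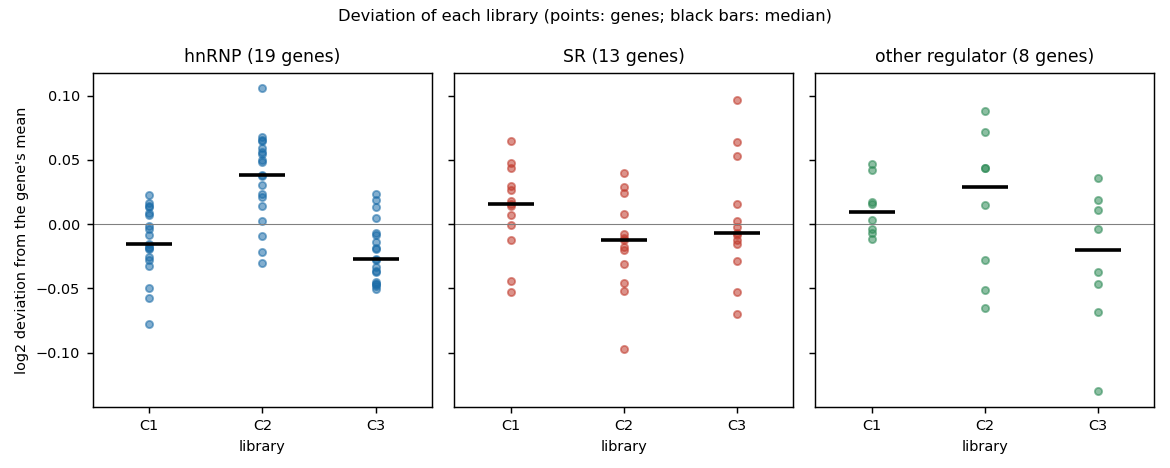
Log2 deviation of each gene from its own mean in C1, C2 and C3, for 19 hnRNP genes, 13 SR genes and 8 other regulators with TMM scaling; points are genes and black bars the class medians. The hnRNP median is 0.04 in C2 and -0.03 in C3, and the lowest point is Mbnl3 in C3 at -0.13.

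The annotated transcripts of these genes were counted, a feature the gene choice did not use. GENCODE M21 lists a transcript of the class nonsense-mediated decay for 23 of the 41 genes (56.1%), beside 30.3% of the 10613 protein-coding genes at 1 CPM or more, and a retained-intron transcript for 29 (70.7%), beside 61.8%. Of the SR genes 12 of 14 had such a decay transcript, against 8 of 19 hnRNP genes and 3 of 8 other regulators. Hnrnpd had 4 of them, and Hnrnpk, Hnrnpu, Srsf11, Tra2b and Ptbp1 had 3 each. These are annotated transcripts, not ones measured here, and no test was made of these shares. The factors that degrade such transcripts were expressed. All 8 of the listed decay genes found in the table reached 1 CPM in every library, beside 33.8% of all symbols. Smg5 at 205 ± 11.1 CPM and Smg1 at 181 ± 12.2 CPM (SD, n = 3) were highest in counts. Upf3a (41.8 ± 0.991 CPM) and Upf3b (37.5 ± 2.78 CPM) were lowest.

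Genes that act on SR proteins were mostly expressed as well. Of 11 kinase and import genes 10 reached 1 CPM in every library, beside 33.8% of all symbols. The import receptors Tnpo1, which carries hnRNP A1 into the nucleus, and Tnpo3, which carries SR proteins, stood at 502 ± 16.1 and 189 ± 2.22 CPM (SD, n = 3). Srpk1, the cytoplasmic SR protein kinase, stood at 179 ± 4.81 CPM and Srpk2 at 62.8 ± 4.81 CPM, while Srpk3, a muscle kinase, had 0 counts. The nuclear CLK kinases ran from Clk4 at 30.8 ± 2.74 CPM to Clk1 at 59.3 ± 6.70 CPM. Of this list none passed the edgeR test against the trend.

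Regulators restricted to particular tissues were listed apart. Among 22 of them, 7 (31.8%) were at 1 CPM or more throughout, beside 33.8% of all symbols, and 9 (40.9%) had 0 counts, beside 45.7%, so both shares lay near the background. Those with 0 counts included the neuronal genes Rbfox3, Celf3, Nova1, Elavl2, Elavl4 and Srrm3. Those at 1 CPM or more were the epithelial regulators Esrp1 (26.4 ± 4.39 CPM, SD, n = 3) and Esrp2 (32.2 ± 2.14 CPM) with Rbm47 (24.0 ± 0.741 CPM), Celf4 (23.4 ± 1.48 CPM), Rbm38 (17.2 ± 1.199 CPM), Celf2 and Srrm4. Celf2 was the only one above 100 CPM, at 117 ± 2.72 CPM. Srrm4, which activates neuronal microexons, stood at 2.83 ± 0.698 CPM.

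Promoters in RefSeq (build GRCm38.p6, 250 bases before to 50 after the start, the most upstream start of each gene) were found for 37 of the 41 genes and searched on both strands for 5 motifs. GGGCGG, the GC box bound by SP factors, occurred in 29 (78.4%), beside 68.0% of 8628 promoters of genes at 1 CPM or more and 35.9% of all 27025. CCAAT, bound by NF-Y, occurred in 20 (54.1%), beside 39.6% and 38%. CACGTG, the E-box bound by MYC and MAX, occurred in 6 (16.2%), beside 10.8% and 7.24%. CCGGAAG, bound by ETS factors, occurred in 6 (16.2%), beside 20.3% and 9.14%, and TATAAA in 5 (13.5%), beside 6.25% and 14.2%. The median GC content was 63.3%, beside 61.7% for the promoters of genes at 1 CPM or more. A match describes the letters only and no binding was measured.

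The promoters of the gene highest per exon base in each class are shown with that of Srsf12. This sets expressed members beside the gene without counts. With the longest protein-coding transcript as the length, Hnrnpa2b1 would stand in place of Hnrnpa1. Capitals mark matches to any of the 5 motifs on either strand, and no base fell in more than 1 kind of motif. Hnrnpa1 holds 4 matches to the NF-Y motif and 2 GC boxes. Srsf2 holds 5 GC boxes, a pair of which overlap, 1 NF-Y motif and 1 TATA motif. Ptbp1 holds 1 GC box, 1 NF-Y motif and 1 E-box, and Srsf12 holds 1 GC box and none of the others. The GC box was also the only kind of motif in expressed genes such as Hnrnpu, Qk, Srsf6 and Tra2b. Mbnl3, which is expressed, held none of the 5 motifs.
Hnrnpa1, chr15:103240147-103240446, plus strand: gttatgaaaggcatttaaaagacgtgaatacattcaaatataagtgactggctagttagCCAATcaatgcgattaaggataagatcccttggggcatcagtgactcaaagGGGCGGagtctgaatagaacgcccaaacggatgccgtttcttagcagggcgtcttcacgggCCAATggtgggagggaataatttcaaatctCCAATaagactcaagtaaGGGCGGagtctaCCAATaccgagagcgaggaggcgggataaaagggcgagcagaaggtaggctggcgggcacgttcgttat
Srsf2, chr11:116853045-116853344, minus strand: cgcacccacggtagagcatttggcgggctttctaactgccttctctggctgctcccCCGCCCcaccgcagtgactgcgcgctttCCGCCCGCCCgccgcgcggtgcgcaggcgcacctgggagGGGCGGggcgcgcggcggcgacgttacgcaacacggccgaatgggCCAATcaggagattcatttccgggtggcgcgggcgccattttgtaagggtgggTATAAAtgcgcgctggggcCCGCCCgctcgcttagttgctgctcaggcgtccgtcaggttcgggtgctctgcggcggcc
Ptbp1, chr10:79854182-79854481, plus strand: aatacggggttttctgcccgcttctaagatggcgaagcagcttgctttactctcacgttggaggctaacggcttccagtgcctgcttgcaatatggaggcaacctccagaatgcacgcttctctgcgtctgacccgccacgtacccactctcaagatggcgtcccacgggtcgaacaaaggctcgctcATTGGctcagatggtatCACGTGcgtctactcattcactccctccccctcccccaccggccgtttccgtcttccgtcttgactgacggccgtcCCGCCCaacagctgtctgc
Srsf12, chr4:33209022-33209321, plus strand: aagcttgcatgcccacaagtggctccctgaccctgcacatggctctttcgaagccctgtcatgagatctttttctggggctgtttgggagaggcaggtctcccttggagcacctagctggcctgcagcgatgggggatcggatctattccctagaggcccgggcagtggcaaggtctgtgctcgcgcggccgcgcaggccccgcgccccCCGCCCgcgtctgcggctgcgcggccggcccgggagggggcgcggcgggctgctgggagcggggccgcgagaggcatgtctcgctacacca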

How the data were processed

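Poly(A) RNA libraries of 3 samples were made with a strand-preserving kit, per the labels' protocols. The deposited table holds whole-number read counts per gene symbol, and their unequal library totals show no scaling by the authors. The submitters' processing notes name CASAVA 1.7, BWA, STAR, HTSeq and build mm9, with no role or order; for the annotation, strand and multi-mapping settings the sources used here say nothing. The columns match no sample title and were assigned to the group as a whole.

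CPM used library totals. Lengths came from GENCODE M21, on another build, and matched 31490 of 34591 symbols (91.0%); no coordinate was carried between builds. Spread was tested with edgeR 4.0.16 (R 4.3.3, limma 3.58.1): TMM, filterByExpr, an intercept-only model, on 13026 genes. DESeq2 1.42.0 supplied size factors as an alternative. The tests were checked on simulated counts. With 3 libraries an exact sign-flip test cannot go below p = 0.25, so paralog ratios carry no p. Fold intervals and floors cover counting error only. The genes and lists were chosen with earlier results of these data known. Named in full were the 10 genes highest per length, the preset pairs, genes under 1 CPM, the 6 farthest above the trend and the 4 steadiest above 100 CPM. Of each further list, its 2 highest and lowest genes were named, except 1 that is not reported here; other genes of these lists were chosen after their values were seen. Protein features were planned but not analysed here.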

Additional observations from a re-analysis of the deposited data

How the results depend on the processing

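Library scaling by TMM or DESeq2 size factors moved no level of a named gene by more than its SD. The counts at 1 CPM and 100 CPM stayed at 40 and 33 under both. They also stayed there without each library in turn, but that setting can only raise a count of genes that reach a threshold in every library. The count past the Poisson test was 29 with DESeq2 size factors (5140 of all 13026 genes tested) and 27 with upper-quartile scaling (5206 of 13043). It was 28 with total counts (5176 of 13026) and 27 without the low-count filter (4976 of 18797). When a library was left out it was 7 to 27 of 40 (7 without C2, beside 13.6% of all genes tested, 15 without C3, beside 12.6%, and 27 without C1, beside 37.1%). At 100 CPM or more the share was 18.2% without C2, beside 33.5%, 39.4% without C3, beside 31.3%, and 66.7% without C1, beside 67.6%. The edgeR test against the trend called 0 of the 40 genes tested under all 8 alternatives run for it. Over all genes tested these alternatives called from 0 of 13026 (robust fit) to 106 of 12774 (without C2), so 0 of 40 lies near the background. Paralog ratios depended on length. On the log2 scale, without length correction they were 0.89 for Tra2b over Tra2a, 3.801 for Ptbp1 over Ptbp2, 1.36 for Mbnl1 over Mbnl2, 2.09 for Mbnl1 over Mbnl3, 0.71 for Hnrnpa2b1 over Hnrnpa1, 2.57 for Hnrnph1 over Hnrnph2, -0.24 for Hnrnph1 over Hnrnpf, 1.58 for Hnrnpu over Hnrnpul2, 2.68 for Srsf1 over Srsf9, 1.03 for Srsf3 over Srsf7, 2.28 for Srsf6 over Srsf4, 11.40 for Srsf10 over Srsf12 (a mean over libraries with a floor of 3 counts, not a bound), 1.10 for Celf1 over Celf2, 1.16 for Ptbp1 over Rod1. With the longest protein-coding transcript they were -0.026 for Tra2b over Tra2a, 4.05 for Ptbp1 over Ptbp2, 1.05 for Mbnl1 over Mbnl2, 1.81 for Mbnl1 over Mbnl3, 0.86 for Hnrnpa2b1 over Hnrnpa1, 3.29 for Hnrnph1 over Hnrnph2, -0.26 for Hnrnph1 over Hnrnpf, 1.01 for Hnrnpu over Hnrnpul2, 0.47 for Srsf1 over Srsf9, 0.91 for Srsf3 over Srsf7, 1.64 for Srsf6 over Srsf4, 1.27 for Celf1 over Celf2, 2.27 for Ptbp1 over Rod1. With the counts of copies added, an alternative chosen after the data were seen, they were 0.62 for Tra2b over Tra2a, -1.24 for Hnrnpa2b1 over Hnrnpa1, -1.30 for Hnrnph1 over Hnrnpf, 0.048 for Srsf3 over Srsf7. Adding 5 counts in place of 0.5 moved none of the 13 ratios beyond its SD. Leaving out a library cannot move a mean over 3 libraries beyond their SD, so that setting does not check the ratios. Class medians of library deviations kept within their spread under total-count and DESeq2 scaling, but with total counts 4 hnRNP genes (2 with TMM) were highest in C1 and 2 SR genes (4 with TMM) were highest in C2. The exon lengths bear on each length-scaled value, and C1, at 17630755 counts, limits the floor for silent genes. No paired analysis was possible because all libraries belong to 1 group.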

Other observations

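Proteins that resemble the hnRNP family but lie outside the gene choice were also expressed, with orders given here by counts and not per length. All 19 listed genes found in the table reached 1 CPM in every library and 15 reached 100 CPM, beside 33.8% and 6.81% of all symbols. Of genes at 1 CPM or more, 20.1% reached 100 CPM. Syncrip (535 ± 19.8 CPM, SD, n = 3) was among the highest. Rbmx (39.3 ± 2.90 CPM) and Cirbp (25.99 ± 1.75 CPM), the cold-inducible RNA-binding protein, were lowest. Hnrpdl and Hnrpll, the older symbols of Hnrnpdl and Hnrnpll, stood at 225 ± 12.7 and 154 ± 2.87 CPM. Taf15 stood at 207 CPM (C1), 243 (C2) and 202 (C3) (edgeR quasi-likelihood adjusted p = 0.752 against the trend). It is named after its values were seen.

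The core splicing machinery and the proteins with arginine-serine repeats outside the SR family were expressed throughout. All 28 core spliceosome genes reached 1 CPM in every library and 19 reached 100 CPM, beside 33.8% and 6.81% of all symbols. Of genes at 1 CPM or more, 20.1% reached 100 CPM. The core genes were led in counts by the U5 component Prpf8 (704 ± 24.7 CPM, SD, n = 3) and the U2 subunit Sf3b1 (584 ± 13.1 CPM). Prpf4 (56.9 ± 1.24 CPM) and Snrpg (53.0 ± 0.961 CPM) were lowest. All 14 related genes reached 1 CPM in every library, beside the same 33.8% of all symbols. The nuclear speckle proteins Srrm2 (608 ± 7.05 CPM) and Son (439 ± 6.91 CPM) were highest, and Arglu1 (70.5 ± 4.68 CPM) and Sfswap (66.3 ± 2.69 CPM) lowest. None of these lists held a gene past the edgeR test against the trend, beside 9 of 13026 genes tested, and a robust fit called none of the 13026.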
